A study of Homo sapiens with 6 samples.

Results

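The genes described here encode the SR proteins and the hnRNPs, the 2 large families of nuclear proteins that bind pre-mRNA and steer splicing. Members were taken by name from the annotation: every protein-coding gene whose symbol begins with SRSF or HNRNP, together with TRA2A and TRA2B. Of 41 such genes, 33 had at least 1 edited C, among 7684 genes with edits in all. The 33 genes carried 102 edited isoforms of 9831, of which 76 were protein_coding, 9 were nonsense_mediated_decay and 17 were retained_intron by their annotated biotype. No edited position was at hand for HNRNPA1L2, HNRNPA1L3, HNRNPCL1, HNRNPCL2, HNRNPCL3, HNRNPCL4, HNRNPUL2-BSCL2 and SRSF2, which were not analysed here.

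INSCRIBE marks the RNA near a protein by base editing in fixed cells. A rabbit antibody binds the protein, and a fusion of the cytidine deaminase APOBEC1 with a nanobody against rabbit IgG (Apo1-Nb) then turns nearby Cs into Us, which full-length PacBio reads show isoform by isoform. All 6 libraries came from methanol-fixed HEK293T cells, a human embryonic kidney line, with no other treatment given: 2 RBFOX2-INSCRIBE libraries received anti-RBFOX2 and Apo1-Nb, 2 enzyme-only libraries received Apo1-Nb without the antibody, and 2 buffer-only libraries received neither. The enzyme-only libraries carry the numbers 2 and 3 in their titles. Nothing in the labels says that replicates came from separate cultures, and the paper calls its short-read INSCRIBE replicates technical. Each error below thus measures the spread between 2 libraries, which is to be read as technical.

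SR proteins carry RNA recognition motifs and a domain rich in arginine and serine repeats, bind exonic enhancers and mostly favour inclusion of the exon, while many hnRNPs bind silencers or introns and favour skipping. Most of these genes hold down their own output by unproductive splicing, in which a poison exon or a retained intron sends part of the mRNA to nonsense-mediated decay. RBFOX2 is itself a splicing regulator, binds UGCAUG and is known to act on the splicing of other RNA-binding proteins.

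The RBFOX2 word UGCAUG occurred 34 times in the annotated exons of the edited isoforms, in 20 of the 33 genes. The sequences around 10 of these occurrences are shown because they drew most of the edits described below: 9 had at least 5 edited Cs within 50 nt in both RBFOX2-INSCRIBE libraries, and the one in SRSF6 had edits within 50 nt in both RBFOX2-INSCRIBE libraries and in none of the 4 control libraries. Each is 30 nt of the hg38 reference on the strand of the gene, in the 3′ UTR of a protein-coding isoform, with UGCAUG in capitals and, outside it, a capital for each C that was edited in both RBFOX2-INSCRIBE libraries.
SRSF1 (chr17:58003475-58003504, minus strand): uuuaaaaaaCuaUGCAUGguuguCcuuuuu
SRSF1 (chr17:58004530-58004559, minus strand): uaCugCuaaaucUGCAUGuccucuguguga
SRSF3 (chr6:36603252-36603281, plus strand): aauuugagguguUGCAUGggaauuCuaagc
SRSF6 (chr20:43463820-43463849, plus strand): agggauaaaaCaUGCAUGggaugugaagau
SRSF7 (chr2:38744333-38744362, minus strand): uauaccaaaaaaUGCAUGuuugaggaauug
SRSF11 (chr1:70251065-70251094, plus strand): aaaaugaaaagCUGCAUGcaucuaCagcag
SRSF11 (chr1:70251191-70251220, plus strand): aaaugcaCugauUGCAUGuuauuguggcaa
TRA2B (chr3:185917474-185917503, minus strand): aaaaguauguuuUGCAUGuauuuuuuuaCa
HNRNPC (chr14:21210370-21210399, minus strand): auuucauugagaUGCAUGuugcauugagga
HNRNPH2 (chrX:101413798-101413827, plus strand): gaaaaCuucggaUGCAUGuugagaaacaug
The C inside UGCAUG was edited in both RBFOX2-INSCRIBE libraries in 1 of these windows, the one of SRSF1 that begins at 58004530, and also in enzyme-only replicate 3. No C beside UGCAUG in the 30-nt windows of SRSF7 and HNRNPC was edited in both libraries, since their recurrent edits lay farther out.

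The values are edited positions, each listed with the isoform it was read on and its edit fraction, the share of reads that showed U. Read numbers are not given, so the depth behind each fraction was not used and no interval is given for it. Some fractions recur at several Cs of a library, such as 0.246% near UGCAUG in HNRNPC. A single edited read at each C would give such values, which was not tested. Over all genes the libraries held 207675 and 212661 distinct edited Cs (RBFOX2-INSCRIBE), 90602 and 160201 (enzyme-only, replicates 2 and 3) and 79210 and 77757 (buffer-only). Enzyme-only replicate 2 stands apart from replicate 3, and every comparison with that group carries this spread. The total also bears on each gene, since a library with more or longer reads lists more edited Cs, and this share of a difference was not tested.

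The 33 SR and hnRNP genes held 3050 and 3220 distinct edited Cs in RBFOX2-INSCRIBE, 1512 and 2524 in enzyme-only and 1372 and 1352 in buffer-only. The RBFOX2-INSCRIBE mean of 3135 ± 120 (SD, n = 2) was 1.55 times the enzyme-only mean of 2018 ± 716 (SD, n = 2) and 2.30 times the buffer-only mean of 1362 ± 14.1 (SD, n = 2), and neither control overlapped it. The two-sided exact permutation test over libraries gave p = 0.333 in both cases, the smallest value that 2 libraries against 2 allow. Without enzyme-only replicate 3 the ratio to enzyme-only was 2.07, and without replicate 2 it was 1.24. As a share of all edited Cs of a library, these genes took 1.47% and 1.51% in RBFOX2-INSCRIBE, 1.67% and 1.58% in enzyme-only and 1.73% and 1.74% in buffer-only. The share was thus lowest with the antibody, 0.919 times the enzyme-only share and 0.859 times the buffer-only share, beside 1.68 and 2.68 times as many edited Cs over all genes. Among edits of fraction at least 0.02 the direction against buffer-only turned, to 1.25 times. Edit fractions were low throughout, with medians over listed positions of 0.303% and 0.328% in RBFOX2-INSCRIBE, 0.364% and 0.282% in enzyme-only and 0.212% and 0.228% in buffer-only.

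**Figure D1:**
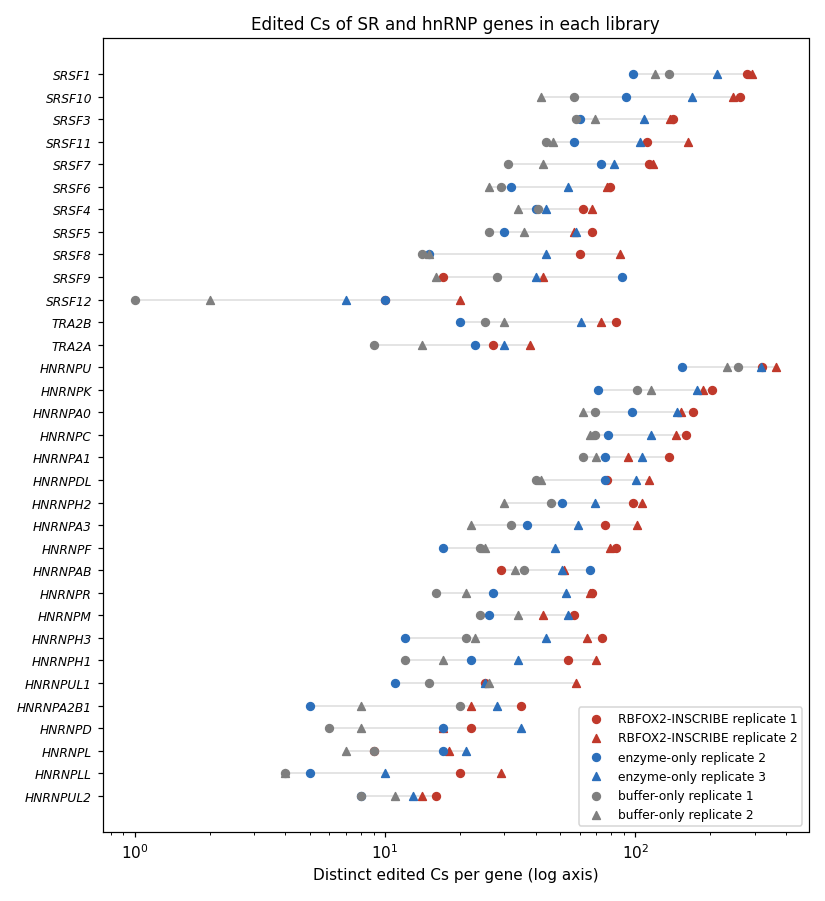
Distinct edited Cs (log axis) of each of the 33 SR, TRA2 and hnRNP genes, 1 point per library, with colour for the group and marker for the replicate; a grey line joins the lowest and the highest library. RBFOX2-INSCRIBE lies to the right for most genes, from 10 and 20 edited Cs in SRSF12 to 321 and 367 in HNRNPU, while SRSF9 and HNRNPAB are highest in enzyme-only replicate 2; points of equal value overlie each other.

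Against buffer-only, 29 of the 33 genes had more edited Cs with RBFOX2-INSCRIBE at an adjusted p under 0.05 in limma and none had fewer. Of all 4939 genes tested, 61% were higher by the same rule and 0.081% lower, and the members' median log2 difference of 1.30 lay below the median of 1.45 over all genes. Among the members 12 of 13 SR and TRA2 genes passed, with a median of 1.49, and 17 of 20 hnRNP genes, with a median of 1.18. Both RBFOX2-INSCRIBE libraries were above both buffer-only libraries for 29 members, beside 78.7% of all genes (1.09% had both below).

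Among the SR genes, SRSF10, which encodes an atypical SR protein that represses splicing once it is dephosphorylated, had 262 and 246 edited Cs in RBFOX2-INSCRIBE, 92 and 169 in enzyme-only and 57 and 42 in buffer-only. Both RBFOX2-INSCRIBE libraries were above the other 4, and the log2 difference from buffer-only was 2.36 ± 0.17 (SE; limma adjusted p = 1.2e-09). SRSF12, a close relative of SRSF10, had few edits, 10 and 20 against 1 and 2 in buffer-only, and the largest difference of all members at 2.92 ± 0.88 (limma adjusted p = 0.00666). SRSF8 had 60 and 87 edited Cs against 14 and 15 in buffer-only, a log2 difference of 2.28 ± 0.30 (limma adjusted p = 1.7e-06). SRSF7, which binds purine-rich and GA-rich exonic enhancers, had 114 and 118 against 31 and 43, a difference of 1.65 ± 0.21. SRSF11 had 112 and 163 against 44 and 47, and SRSF6 had 79 and 77 against 29 and 26. These 2 genes rose by 1.56 and 1.49 on the log2 scale. The transformer-2 homologues TRA2B and TRA2A, which activate exons with GAA repeats, rose by 1.499 ± 0.25 and 1.47 ± 0.41. In the sample values, TRA2B had 84 and 73 edited Cs in RBFOX2-INSCRIBE, 20 and 61 in enzyme-only and 25 and 30 in buffer-only.

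Among the hnRNP genes, HNRNPLL, a relative of HNRNPL known for its control of alternative exons in lymphocytes, had 20 and 29 edited Cs against 4 and 4 in buffer-only, a log2 difference of 2.45 ± 0.54 (limma adjusted p = 5.2e-04). HNRNPH1, HNRNPH2, HNRNPH3 and HNRNPF, whose proteins bind runs of G, rose by 2.07, 1.45, 1.62 and 1.71. HNRNPH1 had 54 and 70 edited Cs in RBFOX2-INSCRIBE, 22 and 34 in enzyme-only and 12 and 17 in buffer-only, with no overlap between any of the groups. HNRNPR, with 67 and 66 against 16 and 21, rose by 1.83, and HNRNPA3, with 76 and 102 against 32 and 22, rose by 1.71. HNRNPU, a scaffold-attachment protein and the member with the most edits, had 321 and 367 edited Cs in RBFOX2-INSCRIBE, 154 and 317 in enzyme-only and 258 and 233 in buffer-only. Its difference of 0.48 ± 0.10 (limma adjusted p = 3.7e-04) was the smallest among the genes that passed. The 4 members that did not pass were HNRNPAB at 0.17, SRSF9 at 0.35, HNRNPUL2 at 0.65 and HNRNPL at 0.65.

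**Figure D2:**
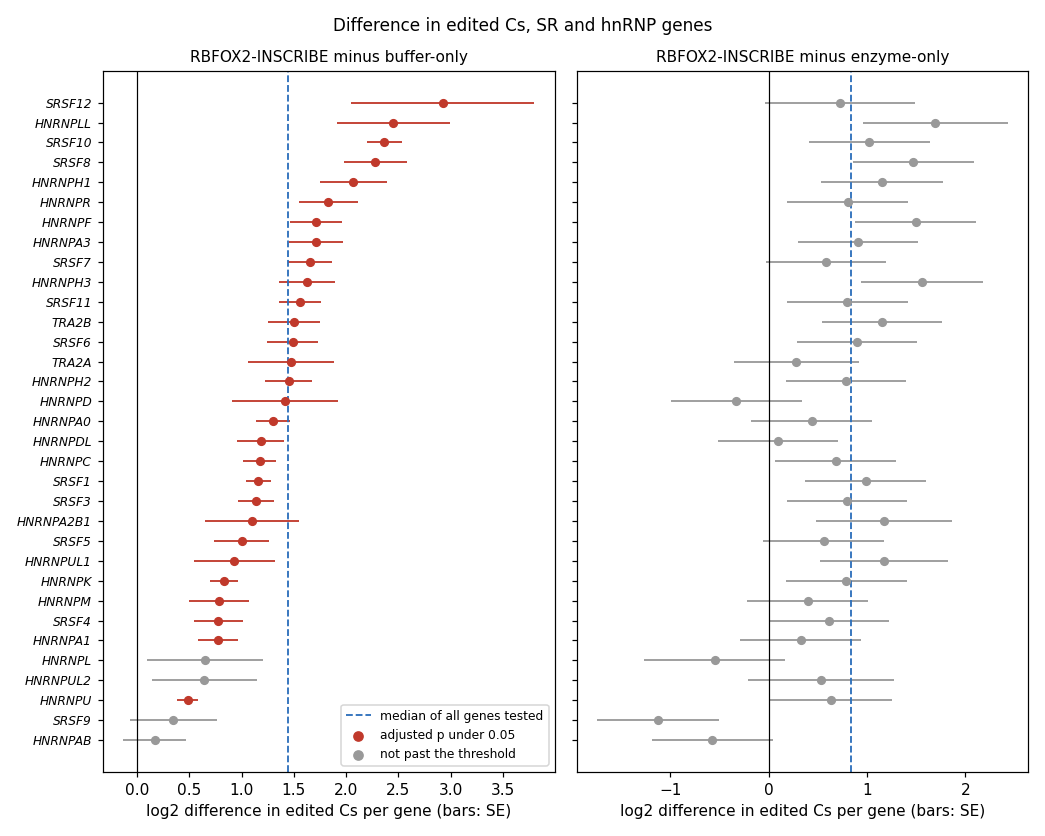
Log2 difference in edited Cs per gene (points, with SE bars) between RBFOX2-INSCRIBE and buffer-only (left) and enzyme-only (right) for the 33 genes, in the order of the left panel; red points passed an adjusted p of 0.05 and the dashed line is the median of all genes tested. On the left 29 genes passed, on both sides of the dashed line at 1.45; on the right none passed and the dashed line is at 0.83.

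Scaling each library to the same total of edited Cs moved the median over all genes from 1.45 to 0.08 and 5 members then passed, with 714 of 4939 genes in all, 418 higher and 296 lower. SRSF10 remained higher, at 0.94 (limma adjusted p = 0.00101), and HNRNPU at -0.95, HNRNPAB at -1.25, HNRNPA1 at -0.65 and HNRNPK at -0.60 were lower, which is a smaller gain than that of the median gene and not a loss of edited positions. With 1 RBFOX2-INSCRIBE library left out no member passed, whichever of the 2 it was (17 members at an unadjusted p under 0.05 without replicate 1 and 16 without replicate 2), and neither did any of 4646 and 4700 genes in all (1782 and 1749 at an unadjusted p under 0.05). A fit with all 3 groups called 20 members, all higher, and 2160 of 4939 genes. Without buffer-only replicate 1 the members' median log2 difference was 1.25, beside 1.43 over all genes. Without buffer-only replicate 2 the members' median was 1.26, beside 1.42 over all genes.

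Against enzyme-only, which differs from RBFOX2-INSCRIBE by the antibody, no member passed in limma, and 36 of 5190 genes did, or 0.694%. At an unadjusted p under 0.05 there were 4 members, HNRNPLL, HNRNPH3, HNRNPF and SRSF8, and 924 of the 5190 genes. HNRNPH3 had 74 and 64 edited Cs in RBFOX2-INSCRIBE against 12 and 44 in enzyme-only, a log2 difference of 1.56 ± 0.62 (limma adjusted p = 0.186). HNRNPF had 84 and 79 against 17 and 48, and SRSF8 60 and 87 against 15 and 44, and both exceeded all their control libraries. The differences were 1.49 and 1.47 on the log2 scale, with limma adjusted p of 0.197 and 0.203. HNRNPLL, with 20 and 29 against 5 and 10, had the largest difference at 1.69. HNRNPH1, at 1.15, was the next after these 4 among genes whose libraries did not overlap. The members' median of 0.78 was close to that of all genes, 0.83, and 21 of the 33 had both RBFOX2-INSCRIBE libraries above both enzyme-only libraries, beside 51.2% of all genes. None had both below, beside 3.72% of all genes.

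Both the absence of calls and the size of the differences depended on which enzyme-only libraries were fitted, and the totals of these libraries differed. Without enzyme-only replicate 3 the members' median log2 difference was 1.15, beside 1.27 over all genes. Without enzyme-only replicate 2 it was 0.36, beside 0.34 over all genes. SRSF9, a small SR protein, went against the rest. It had 17 and 43 edited Cs in RBFOX2-INSCRIBE, 89 and 40 in enzyme-only and 28 and 16 in buffer-only. The groups with and without antibody thus overlapped, and the difference from enzyme-only was -1.13 ± 0.62 (limma adjusted p = 0.304). Without enzyme-only replicate 3 the difference of SRSF9 was -1.70, while replicate 3, at 40, lay between the 2 RBFOX2-INSCRIBE libraries. With both enzyme-only libraries, the other 3 with a negative value were HNRNPAB at -0.57, HNRNPL at -0.55 and HNRNPD at -0.33, none of which passed.

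Between enzyme-only and buffer-only, which differ by Apo1-Nb alone, no member passed in limma and 1 of 4363 genes did (0.0229%). At an unadjusted p under 0.05 there were SRSF10 at 1.34, SRSF9 at 1.47 and HNRNPD at 1.75, beside 552 of the 4363 genes. The members' median log2 difference was 0.67, that of all genes 0.63, and 19 of the 33 had both enzyme-only libraries higher, beside 42% of all genes (1.63% had both lower).

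Of 67 member isoforms tested one by one, on edited Cs per C of the exons (editsC), 50 were higher with RBFOX2-INSCRIBE than with buffer-only and none lower, where 56.7% of all 5521 isoforms were higher and 0.0725% lower. The libraries did not overlap for 61 of the 67, all higher, beside 78% of all isoforms higher and 0.996% lower. No member isoform passed after scaling to the same total, where 6 of 5521 isoforms did, or with either RBFOX2-INSCRIBE library left out (26 at an unadjusted p under 0.05 each time), and 31 passed in a fit with all 3 groups. Against enzyme-only none of 70 passed in limma, beside 0.0513% of all isoforms. At an unadjusted p under 0.05 there were 7, beside 898 of 5851 isoforms in all. The result depended on the enzyme-only library. Without replicate 3 the members' median log2 difference was 1.25, beside 1.30 over all isoforms, and without replicate 2 it was 0.47, beside 0.35. Both RBFOX2-INSCRIBE libraries were above both enzyme-only libraries for 47 of the 70, beside 50.5% of all isoforms (3.59% had both below). Between enzyme-only and buffer-only none of 59 passed in limma, where 0.735% of all isoforms did, 0.692% higher and 0.0432% lower. At an unadjusted p under 0.05 there were 10, beside 671 of 4627 isoforms in all. Of the 59, 30 were higher without overlap, beside 41.6% of all isoforms (1.75% had both lower). Isoforms of a gene share sequence and are not independent. The isoforms with the most edited Cs were the main coding isoforms. SRSF1-201, which encodes the founding SR protein, had 28.5% of its Cs edited in RBFOX2-INSCRIBE on average, 14.5% in enzyme-only and 12.1% in buffer-only. HNRNPU-205 had 18.9%, 12.3% and 13.8%, and SRSF3-202 had 19.1%, 11.3% and 8.67%. HNRNPA0-201 had 10.3%, 7.77% and 4.17%, and HNRNPA1-203 had 14.1%, 11.4% and 8.08%. The single isoform of HNRNPH2 had 98 and 107 edited Cs in RBFOX2-INSCRIBE, 51 and 69 in enzyme-only and 46 and 30 in buffer-only.

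Where the edits lay in the protein-coding isoforms differed between the groups. In the 3′ UTRs, 12.02% and 13.04% of the Cs were edited in RBFOX2-INSCRIBE, 4.82% and 8.83% in enzyme-only and 3.59% and 3.52% in buffer-only. In the coding sequence the values were 11.4% and 11.8%, 7.24% and 10.9%, and 6.98% and 7.31%. In the 5′ UTRs they were 3.79% and 3.45%, 2.33% and 3.42%, and 2.70% and 2.57%. The 3′ UTR thus gained 3.52 times over buffer-only, the coding sequence 1.62 times and the 5′ UTR 1.37 times. Over all protein-coding genes the order was the same, with 3.93, 2.05 and 1.43 times. Those values count a position once per isoform, while the members' values count it once per gene, so their sizes are not compared. Counted per isoform in both, coding member isoforms had 2.89% of their Cs edited in buffer-only on average, beside 0.973% over all protein-coding genes. Reads were assigned to isoforms by the study, and more reads list more edited Cs, so a level per C also follows the abundance of an mRNA, whose part was not tested.

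**Figure D3:**
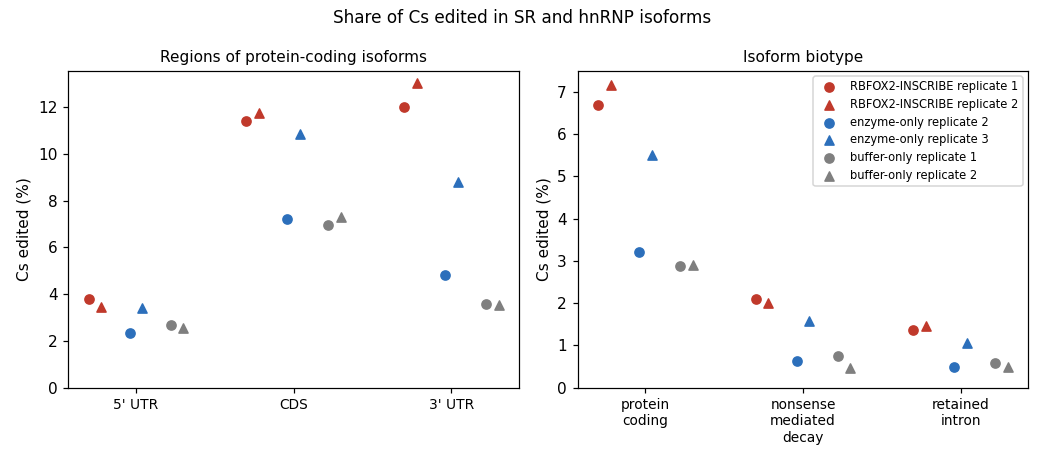
Percent of Cs edited in SR and hnRNP isoforms, 1 point per library, by region of the protein-coding isoforms (left) and by isoform biotype (right); colours are groups and markers replicates. With RBFOX2-INSCRIBE the 3′ UTR reaches 12.02% and 13.04% and the coding sequence 11.4% and 11.8%, while in buffer-only the coding sequence, at 6.98% and 7.31%, is above the 3′ UTR, at 3.59% and 3.52%; nonsense_mediated_decay and retained_intron isoforms stay at or under 2.10% in all 6 libraries.

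The base before the edited C set the libraries with enzyme apart from those without it. APOBEC1 is known to prefer a C that follows A or U. Of all Cs in the exons of these isoforms 52.2% follow A or U. Among edited Cs the share was 69.0% in both RBFOX2-INSCRIBE libraries, 61.1% and 65.8% in enzyme-only and 39.9% and 41.5% in buffer-only. The buffer-only edits instead followed G in 39.1% and 37.4% of cases, against 24.5% of all Cs. The 3 groups did not overlap in the share that followed A or U.

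More positions recurred with RBFOX2-INSCRIBE than with either control, and no test of this was made. Its libraries also listed more edited Cs, 3050 and 3220 against 1512 and 2524 in enzyme-only and 1372 and 1352 in buffer-only. The members' shares below are of all 8084 positions, so a group with more edits can recur more. Of 8084 distinct edited Cs, 1146 were found in both RBFOX2-INSCRIBE libraries, or 14.2%, beside 8.05% over all genes, 317 in both enzyme-only libraries (3.92%, beside 1.87%) and 269 in both buffer-only libraries (3.33%, beside 1.15%). The shares were thus above those of all genes in every group, controls included. In both RBFOX2-INSCRIBE libraries and no control library there were 408, or 5.05% beside 4.16% over all genes. No position occurred in both RBFOX2-INSCRIBE and both enzyme-only replicates at once, and the methods state that positions edited across replicates and samples were removed as likely SNPs. A site shared by those libraries is therefore not in these counts.

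Edited Cs of SR and hnRNP isoforms lay near UGCAUG more often with RBFOX2-INSCRIBE than in either control. The word was searched on the strand of the isoform, wholly within 50 nt of the edited C along the spliced sequence. It was there for 82 of 2962 and 96 of 3132 edited Cs in RBFOX2-INSCRIBE (2.77% and 3.07%), 18 of 1449 and 29 of 2445 in enzyme-only (1.24% and 1.19%) and 19 of 1298 and 16 of 1292 in buffer-only (1.46% and 1.24%). The background was all Cs of the exon holding each edited C, of which 1.196% to 1.772% had the word as near on average. Set against it, the enrichment was 1.65 and 1.73 in RBFOX2-INSCRIBE, 0.932 and 0.836 in enzyme-only and 1.09 and 1.04 in buffer-only. The mean of 1.69 ± 0.0568 (SD, n = 2) compares with 0.884 ± 0.068 in enzyme-only (two-sided exact permutation test over libraries, p = 0.333, the smallest possible with 2 against 2). Over all genes the RBFOX2-INSCRIBE enrichment was 1.45 and 1.48, from a higher share of Cs near the word, 2.95% and 2.91%.

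In the mean of the 2 RBFOX2-INSCRIBE libraries, editing was densest within 50 nt of the word. In replicate 1 the bins within 25 nt, at 15.4% and 13.6%, were not above that from 176 to 200 nt on the 5′ side, at 15.9%. Within 1 to 50 nt of UGCAUG, on either side, 18.1% and 20.3% of 497 Cs were edited in RBFOX2-INSCRIBE, 4.02% and 6.44% in enzyme-only and 4.02% and 3.02% in buffer-only. Farther than 100 and up to 200 nt away it was 9.97% and 11.9% of 923 Cs in RBFOX2-INSCRIBE, 3.36% and 5.74% in enzyme-only and 3.36% and 2.71% in buffer-only. The ratio of RBFOX2-INSCRIBE to enzyme-only was thus 3.67 beside the word and 2.40 farther off. In enzyme-only the means of the 2 zones were 5.23% and 4.55%, and in buffer-only 3.52% and 3.03%.

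**Figure D4:**
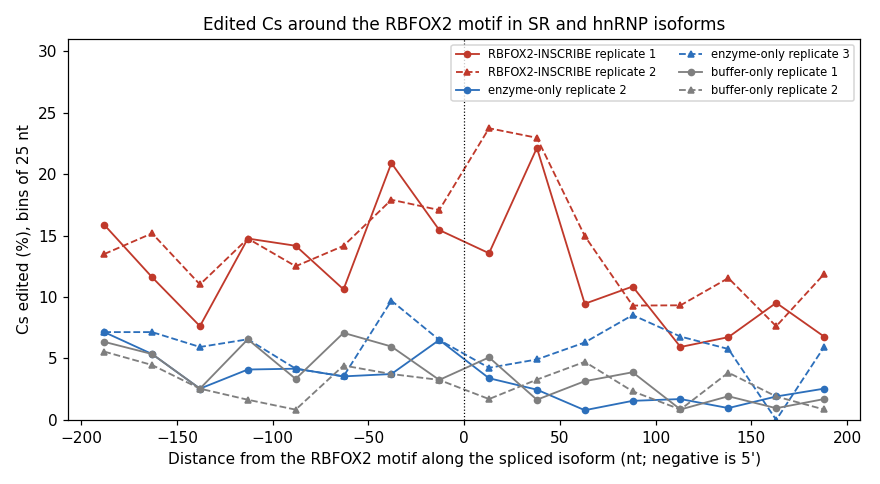
Percent of Cs edited in bins of 25 nt against the distance from UGCAUG, the RBFOX2 motif, along spliced SR and hnRNP isoforms, 1 line per library; negative distances are 5′ of the motif. Both RBFOX2-INSCRIBE lines are highest within 50 nt, replicate 1 at 22.1% from 26 to 50 nt and replicate 2 at 23.7% from 1 to 25 nt, a bin where replicate 1 has 13.6%, and the 4 control lines stay under 10% at all distances.

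The edits near UGCAUG came from a few 3′ UTRs. Among the 34 occurrences, 18 and 20 had an edit within 50 nt in the RBFOX2-INSCRIBE libraries, 8 and 13 in enzyme-only and 11 and 7 in buffer-only. The occurrence in TRA2B had 6 and 6 edited Cs within 50 nt in RBFOX2-INSCRIBE, none in enzyme-only and 1 in a single buffer-only library. Of these, 4 Cs were edited in both RBFOX2-INSCRIBE libraries and in no control, among them the C 11 nt after the word, capitalised above, at fractions of 0.199% and 0.920%. HNRNPC, the core hnRNP that binds runs of U, had 6 and 9, with none in enzyme-only and 1 in a single buffer-only library. The 2 occurrences in SRSF1 had 7 and 10 and 8 and 9 edited Cs, but also 2 to 5 in the enzyme-only and 1 to 5 in the buffer-only libraries. SRSF3, a small SR protein with a well-studied poison exon, had 7 and 9 edited Cs against 1 and 4 in enzyme-only and 3 and 3 in buffer-only. SRSF7 had 6 and 9 against 0 and 4 in enzyme-only and 1 and 0 in buffer-only. HNRNPH2 had 7 and 6 against 2 and 2 in each control. The 2 occurrences in SRSF11 had 8 and 6 and 7 and 8, against 3 and 2 and 0 and 4 in enzyme-only and 1 and 2 and 1 and 3 in buffer-only. At 3 occurrences both RBFOX2-INSCRIBE libraries and no control had an edit, in HNRNPA3 (chr2:177221064-177221069, in a 3′ UTR and a nonsense_mediated_decay isoform), SRSF6 and SRSF8 (chr11:95071139-95071144). Their numbers were uneven, with 1 and 3, 7 and 1 and 2 and 2. All 7 edits of SRSF6 in replicate 1 had the same fraction, 5.26%, and whether they lay on the same reads was not tested.

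The highest fractions were found at few Cs. In both RBFOX2-INSCRIBE libraries 19 Cs of 9 genes had a fraction of at least 2%, and 14 of these were edited in no control library. The same share over all genes was not counted. At any fraction, 408 of 1146 member Cs found in both RBFOX2-INSCRIBE libraries were in no control, beside 26363 of 51069 over all genes. A C covered by few reads can be missing from a control for that reason, which was not tested. In SRSF6 the C 2 nt before UGCAUG, at chr20:43463830, had 5.26% and 6.67%, and a second one at chr20:43464099 had 6.25% and 8.33%. SRSF7 had 3 such Cs, 2 of them 41 and 29 nt before UGCAUG. The first, at chr2:38744391, had 3.75% and 3.85% and no edit in a control, and the second, at chr2:38744379, had 2.19% and 2.56% beside 0.820% in enzyme-only replicate 3. In SRSF11 the C 7 nt after the word, at chr1:70251089, had 2.55% and 3.80%. Among the 19, SRSF12 had the highest value of a single library, 10%, with 4.76% in the other, at chr6:89097258. The remaining sites, away from UGCAUG, lay in HNRNPA2B1, HNRNPA3, HNRNPH1, HNRNPU, SRSF10, SRSF11 and SRSF7. A fraction of some percent can rest on few reads of a rare isoform, and the reads behind these were not at hand. The values of SRSF6 at chr20:43463830 and of SRSF12 are of a size that 1 edited read among few would give. Where reads are few, 1 edited read is enough to pass a fraction of 2%.

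Nonsense_mediated_decay and retained_intron isoforms were edited at lower density than coding isoforms in every library. Protein_coding member isoforms had 6.69% and 7.17% of their Cs edited in RBFOX2-INSCRIBE, 3.22% and 5.50% in enzyme-only and 2.88% and 2.897% in buffer-only. Nonsense_mediated_decay isoforms had 2.10% and 2.00%, 0.637% and 1.57%, and 0.757% and 0.465%. Retained_intron isoforms had 1.35% and 1.46%, 0.485% and 1.06%, and 0.574% and 0.492%. RBFOX2-INSCRIBE was 1.59 times enzyme-only in the coding isoforms, 1.86 times in the nonsense_mediated_decay isoforms and 1.82 times in the retained_intron isoforms. Over all protein-coding genes these ratios were 1.69, 1.65 and 1.69. The enzyme-only means carry the spread between replicates 2 and 3, and the differences between the ratios were not tested.

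Gene by gene, 8 members had enough edits in both classes to compare the gain of nonsense_mediated_decay plus retained_intron isoforms with that of the coding isoforms of the same gene. None of the 8 differed at an adjusted p under 0.05 in limma, against enzyme-only or buffer-only, and neither did any of 164 and 149 genes in all (0%). At an unadjusted p under 0.05 there were 0 members against enzyme-only, beside 10 of 164 genes, and 1 against buffer-only, beside 24 of 149. Against buffer-only SRSF7 and SRSF10 had lower values for the unproductive class, at -1.38 ± 0.49 and -1.34 ± 0.53 on the log2 scale, neither of which passed (limma adjusted p of 0.264 and 0.307). The unproductive isoform of SRSF7, SRSF7-208, had 5.74% and 8.74% of its Cs edited in RBFOX2-INSCRIBE, 4.64% and 8.47% in enzyme-only and 4.098% in both buffer-only libraries, while the coding isoforms went from 1.57% and 2.77% in buffer-only to 9.88% and 9.05%. HNRNPH1 at 1.18, HNRNPU at 1.06 and HNRNPA3 at 1.05 had the opposite sign, also without passing. In HNRNPA3 the nonsense_mediated_decay isoform had 41 and 41 edited Cs in RBFOX2-INSCRIBE, 7 and 26 in enzyme-only and 9 and 6 in buffer-only. SRSF5, SRSF11 and SRSF4 were at 0.09, -0.46 and 0.61 against buffer-only. In SRSF5 the unproductive isoforms carried more edited Cs than the coding ones in every library, 53 and 51 against 19 and 12 in RBFOX2-INSCRIBE.

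Sequence found only in the unproductive isoforms, such as retained introns and poison exons, was compared with the exon sequence they share with coding isoforms. Of 6070 Cs in the specific part, 165 and 170 were edited in RBFOX2-INSCRIBE, 57 and 115 in enzyme-only and 71 and 44 in buffer-only. Of 7182 Cs in the shared part it was 142 and 157, 50 and 128, and 53 and 55. The ratio of the 2 densities was 1.37 and 1.28 in RBFOX2-INSCRIBE, 1.35 and 1.06 in enzyme-only and 1.59 and 0.947 in buffer-only, so the groups overlapped (two-sided exact permutation test over libraries, p = 0.667 against enzyme-only). For retained_intron isoforms alone both RBFOX2-INSCRIBE ratios, 1.72 and 1.52, exceeded those of enzyme-only, 1.42 and 1.35. They lay between the buffer-only ratios of 1.99 and 1.05. Over all the unproductive isoforms, edits of fraction at least 0.02 gave the other order against enzyme-only, 1.56 and 1.39 against 1.77 and 1.65. The buffer-only ratios at that fraction were 4.88 and 1.77. HNRNPU had the most specific edits of any member, with 76 and 61 of 1942 Cs in RBFOX2-INSCRIBE, 23 and 51 in enzyme-only and 38 and 14 in buffer-only. Its isoforms HNRNPU-203 and HNRNPU-208 end at chr1:244840638, 3′ of its edited coding isoforms, so specific sequence can also be a different 3′ end. SRSF11 had 24 and 38 of 289 Cs, against 4 and 15 and 10 and 5, with both RBFOX2-INSCRIBE libraries above all controls. SRSF5 had 28 and 21 of 190, against 11 and 20 and 8 and 13. SRSF7 had 13 and 21 of 159, against 8 and 11 and 7 and 4. HNRNPD and HNRNPA3 had none in any library, of 390 and 9 Cs.

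Single isoforms were also ranked by a line of RBFOX2-INSCRIBE on enzyme-only editsC over isoforms with an edited C of fraction at least 0.02 in all 4 libraries. Among 3347 isoforms 224 lay more than 1.5 SD above the line, or 6.69%, and among 25 member isoforms 4 did. They were SRSF10-207 at 2.02 SD, SRSF11-203 at 1.97 SD, SRSF7-209 at 1.71 SD and the retained_intron isoform HNRNPH1-206 at 1.60 SD. At any fraction SRSF10-207 had 3 and 11 edited Cs in RBFOX2-INSCRIBE against 9 and 4 in enzyme-only, so its groups overlapped, and SRSF11-203 had 13 and 22 against 12 and 14. HNRNPH1-206 had 19 and 19 edited Cs at any fraction in RBFOX2-INSCRIBE, 3 and 4 in enzyme-only and none in buffer-only. The coding isoform HNRNPH1-203 lay below the line at -2.38 SD, from 1 and 1 Cs of fraction at least 0.02 against 5 and 6, although at any fraction it had 10 and 16 edited Cs against 5 and 6. Without RBFOX2-INSCRIBE replicate 2 the line picked 2 member isoforms.

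Genes that work with these families were taken from 2 short lists. Of the SR protein kinases and the import receptor TNPO3, all 3 tested of 7 listed rose against buffer-only, where 61% of all genes did: CLK1 by 1.67, SRPK1 by 1.44 and TNPO3 by 3.60 on the log2 scale. Of the hnRNP relatives under other names 3 of 7 tested rose, PTBP1 by 0.84, RBMX by 0.99 and SYNCRIP by 1.39, with a list median of 0.56. Against enzyme-only none of the genes of the 2 lists passed in limma, with 1 at an unadjusted p under 0.05, TNPO3 at 2.63.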

How the data were processed

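Edits were called by the authors: PacBio full-length reads were aligned to hg38 with pbmm2 and assigned to isoforms with IsoQuant, C-to-U changes were called, and positions edited in all samples or known from dbSNP were removed. The deposited tables give, per library, each edited position, its isoform and its edit fraction; read numbers and expression are not given, so the cell line was not checked by markers. Isoforms were matched to GENCODE 44, the release used for the long reads being not given in the sources used here. Edited positions per gene, or per C of an isoform's exons, were compared as log2 values (pseudocount 0.5; mean of at least 5) with limma 3.58.1 (trend, robust, Benjamini-Hochberg over all features) in R 4.3.3, after a test on simulated data. Single values were compared by exact permutation over libraries. The members, lists and named genes (the 15 largest called differences, or the 5 largest without overlap where fewer than 5 passed) were chosen with earlier results of these data known; regions and preceding bases were added later. Alternatives varied pseudocount, filter, scaling, strand, window, fraction, samples and block. A further list, of decay factors, is not reported here.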

Additional observations from a re-analysis of the deposited data

How the results depend on the processing

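Among the alternatives run for summary values, 141 were classed as the same, 11 as moved and 5 as reversed. These classes are not a count of members that kept their call. Against buffer-only, for instance, 29 member genes passed as reported and 20 in a fit with all 3 groups. Of the values of the genes named by the rule above, 247 kept their call, 43 lost it, 5 gained it and none changed sign. Members outside that rule did change sign. All 33 were positive against buffer-only, and 16 after scaling to the same total, with HNRNPU at -0.95 and HNRNPAB at -1.25. Scaling to the same total left 5 member genes and 0 member isoforms past the threshold against buffer-only, beside 714 of 4939 genes and 6 of 5521 isoforms. At an unadjusted p under 0.05 in limma there were 13 member isoforms, beside 1328 in all. A fit with all 3 groups left 31 member isoforms and 20 member genes, beside 2046 isoforms and 2160 genes in all. Leaving out 1 library at a time gave 0 to 28 member genes against buffer-only and 0 to 24 against enzyme-only, and 0 to 35 and 0 to 23 member isoforms. It also gave 2 to 5 isoforms above the line. Where an arm had 1 library, it was assumed to vary like the other group. With edit fractions of at least 0.02 the members' share of edited Cs was 1.25 times that in buffer-only, above it and not below. The ratio of specific to shared sequence in unproductive isoforms, set against enzyme-only, was 0.862 at that fraction and 0.985 to 1.25 with a library left out. Set against buffer-only it was 0.444 and 0.838 to 1.40. The cause was not tested. The enrichment near UGCAUG relative to enzyme-only stayed above 1 throughout, from 1.24 with GCAUG to 2.18 at fractions of at least 0.02, where buffer-only had no edit near UGCAUG and gave no ratio. The number in the labels' replicate tag, which gives enzyme-only replicates 2 and 3 the numbers 1 and 2, was also fitted as a block. Against buffer-only 29 member genes and 44 member isoforms then passed, beside 2867 of 4939 genes and 2821 of 5521 isoforms in all. Against enzyme-only 0 members passed, beside 36 of 5190 genes and 74 of 5851 isoforms, and no other member call changed. Same-numbered libraries deviated together only weakly, with correlations over 4920 genes of 0.12, 0.04 and -0.02, and only 2 numbers were shared, so the numbers were not used as a pairing. The files give no read numbers, so a low count of edited Cs cannot be told apart from few reads.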
